A study of Mus musculus with 18 samples.

Results

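The comparison described here set MHCII+CD11c+ macrophages against MHCII+CD11c- macrophages of the synovium, the membrane that lines the joint cavity, 8 h after mice were injected intravenously with immune complexes (IC). IC are clusters of antigen and bound antibody, here ovalbumin with rabbit antibody to it. The members were the 6 libraries whose labels name either subset together with IC, of 18 libraries in the series: 3 of MHCII+CD11c+ cells (CD11c_IC in the labels) and 3 of MHCII+CD11c- cells (IAIE_IC). Every mouse was WT on the C57BL/6 background, and IC was the only agent given. The same subsets from untreated mice (CD11c_Healthy and IAIE_Healthy, 3 libraries each) gave the same comparison without IC, and LYVE1+CX3CR1+ macrophages with and without IC made up the remaining 6 libraries. Each library pooled the leg synovia of several mice after collagenase digestion and flow sorting, so a library is a pool of animals and not 1 animal. Adult mice of both sexes entered the study, but the 4 Y-linked genes looked up had no count in any library. The X-linked gene Xist was counted in all 6 libraries after IC, at 312 to 415 CPM in CD11c+ and 337 to 1017 CPM in CD11c- libraries. It was not called (adjusted p = 0.187, edgeR). The sex of the mice in each pool was not established here. The question was how the transcripts of the 2 MHCII+ subsets differ once both have met the same circulating IC. Where a gene is said to be higher or lower, or to rise or fall, CD11c+ cells are compared with CD11c- cells. These words do not mean a change caused by IC.

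CD11c is an integrin alpha chain, encoded by Itgax, that pairs with the beta2 chain and is carried by dendritic cells and by some tissue macrophages. MHC class II molecules load peptides in endosomes and show them to CD4 T cells. The groove is kept filled by the invariant chain (Cd74) until H2-DM exchanges it for a peptide. The chemokines Ccl17 and Ccl22 both act on the receptor CCR4 and are classical products of dendritic cells and of macrophages exposed to IL-4, which signals through STAT6.

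The promoters of 4 genes on which the comparison turned are shown first, because the letters near a gene's start can be set beside its level. Each window runs from 250 bases before to 50 bases after the annotated start (RefSeq, GRCm38.p6), is written 5′ to 3′ on the gene's strand, and carries in capitals the letters searched for on both strands. These were a STAT site (TTC and GAA with any 4 bases between), GAGGAA (the PU.1 core), TGCTGA (a MAF core), TGANTCA (AP-1), an interferon-response core (GAAA and GAAA with any 2 bases between) and CTGATTGG (the Y box of class II promoters). CTGATTGG was added after the values were seen. The Ccl17 window (chr8:94810203-94810502, plus strand) held GAGGAA at base 3 and the STAT site at base 97. The Ccl22 window (chr8:94745434-94745733, plus strand) held none of the 6, which says only that these letters are not in those 300 bases. The H2-Aa window (chr17:34287774-34288073, minus strand) held CTGATTGG at base 200. In the H2-Eb1 window (chr17:34305617-34305916, plus strand) CTGATTGG at base 189 overlapped TGCTGA at base 187.
Ccl17: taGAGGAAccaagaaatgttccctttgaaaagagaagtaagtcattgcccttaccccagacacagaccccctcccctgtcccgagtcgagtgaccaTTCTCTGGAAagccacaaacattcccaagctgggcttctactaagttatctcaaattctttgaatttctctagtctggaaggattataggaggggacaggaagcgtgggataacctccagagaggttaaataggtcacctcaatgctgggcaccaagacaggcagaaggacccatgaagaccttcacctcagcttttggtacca
Ccl22: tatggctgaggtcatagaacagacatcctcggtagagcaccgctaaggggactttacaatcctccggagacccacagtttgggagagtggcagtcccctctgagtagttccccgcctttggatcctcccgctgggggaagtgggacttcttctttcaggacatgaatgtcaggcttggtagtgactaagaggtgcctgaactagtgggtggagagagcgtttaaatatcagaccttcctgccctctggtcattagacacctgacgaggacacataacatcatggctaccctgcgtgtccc
H2-Aa: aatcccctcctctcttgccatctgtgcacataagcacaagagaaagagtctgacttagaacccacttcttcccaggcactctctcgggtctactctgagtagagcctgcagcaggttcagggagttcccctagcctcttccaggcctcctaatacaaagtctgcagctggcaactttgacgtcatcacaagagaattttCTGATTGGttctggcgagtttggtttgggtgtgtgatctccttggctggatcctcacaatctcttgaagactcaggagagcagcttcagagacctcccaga
H2-Eb1: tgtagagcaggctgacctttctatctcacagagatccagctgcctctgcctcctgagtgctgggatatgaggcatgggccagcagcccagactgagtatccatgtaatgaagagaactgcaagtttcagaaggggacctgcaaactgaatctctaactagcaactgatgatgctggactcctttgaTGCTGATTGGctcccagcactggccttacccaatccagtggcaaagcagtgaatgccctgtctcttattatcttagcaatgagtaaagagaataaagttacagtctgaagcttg

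Depth and quality differed between the libraries. The 3 CD11c+ libraries held 671244, 1306815 and 1614423 counts and the 3 CD11c- libraries 381217, 245903 and 973951, so that 3 counts corresponded to 1.83 to 4.63 CPM (counts scaled to library size and TMM factor) in the former and 3 to 11.3 CPM in the latter. CD11c- replicate 2, the smallest of all 18 libraries, stood apart. Over the 2780 genes with a mean log2 CPM above 6 it correlated with the other CD11c- libraries at r = 0.777 and 0.789, against r = 0.924 between those, and it was the lowest of the 6 libraries in 60 of the 100 most abundant genes. Where leaving it out changed how many members of a list were called, both counts are given. At an adjusted p under 0.05 (edgeR's quasi-likelihood test, Benjamini-Hochberg adjustment over 10550 genes), 300 genes were called, 2.84% of those tested. This share is the background for the counts of every list below, and few or no calls in a short list say little. In CD11c+ cells 187 were higher (1.77%) and 113 lower (1.07%). Of the 187, 17 had no count in any CD11c- library and 14 more had at most 3 counts in each. Only 5 of the 113 were that low in every CD11c+ library. Among 3908 genes with at least 10 counts in each of the 6 libraries, 104 were called higher and 114 lower. The part of the depth gap in the larger number of higher calls was not tested. The 2 groups did not overlap in 288 of the 300, against 16.8% of all genes tested, and the median log2 fold change of all genes was 0.0021. Without CD11c- replicate 2, 169 genes were higher and 140 lower. Leaving out CD11c+ replicate 1 or 2 left 182 and 167 calls.

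**Figure D1:**
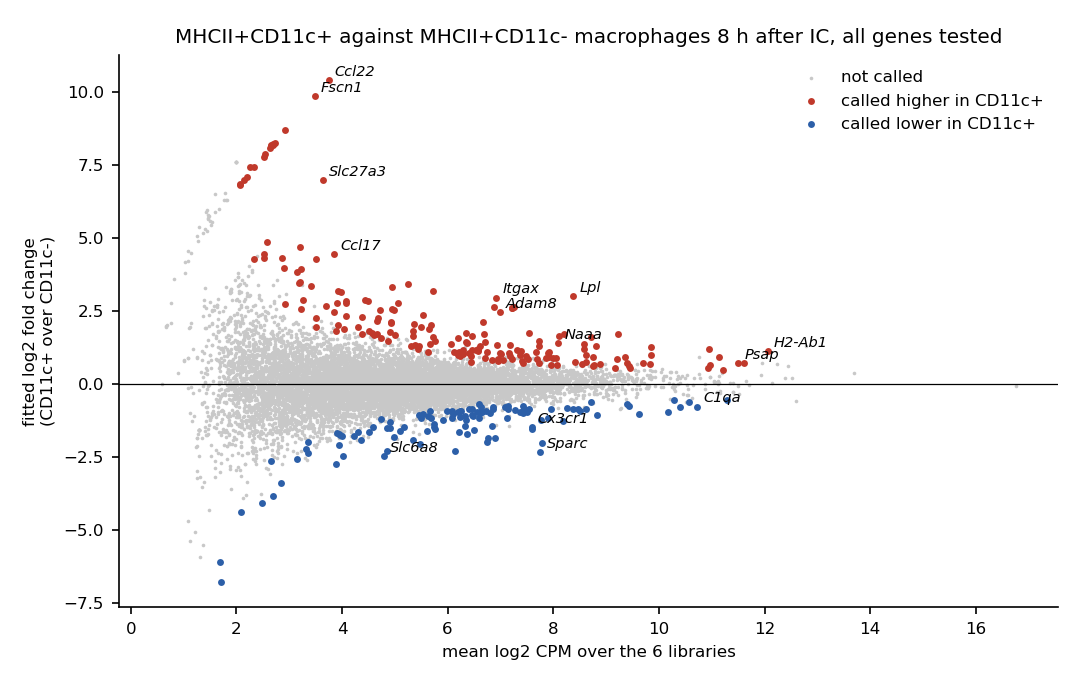
Fitted log2 fold change (vertical) against mean log2 CPM over the 6 libraries (horizontal) for the 10550 genes tested, with the 187 genes called higher in CD11c+ in red and the 113 called lower in blue. The arc of points at upper left consists of genes with no or few counts in the CD11c- libraries, whose fitted height depends on the prior count and is not a measured fold.

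The sort itself came first. Itgax stood at 383, 273 and 357 CPM in the 3 CD11c+ libraries and at 70.6, 33.9 and 31.0 CPM in the CD11c- libraries. The groups did not overlap, and Itgax was 7.78-fold higher (log2 fold change 2.96 ± 0.43 SE, adjusted p = 0.000147, edgeR). Since CD11c was the gate, this checks the labels and is no finding. In healthy mice the CD11c- libraries had only 2.33, 2.44 and 13.3 CPM of Itgax against 240.0 to 304 CPM in CD11c+ libraries. The CD11c- libraries after IC thus lay above those of healthy mice, a comparison not tested here, and the difference between the 2 subset contrasts was not called (adjusted p = 0.684). Cells of both subsets expressed macrophage genes. Of 14 core macrophage genes only Ptprc, the pan-leukocyte phosphatase CD45, was called (log2 fold change 0.54, adjusted p = 0.0484), and Lyz2 (adjusted p = 0.549) and Csf1r (adjusted p = 0.763), which encode lysozyme and the CSF1 receptor, were not. Without CD11c- replicate 2, Csf1r and Adgre1 (which encodes F4/80) were called lower in CD11c+ cells, at log2 fold changes of -0.51 and -0.49.

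Ccl22 and Ccl17 were the 2 of 12 tested CC chemokines that were called. Ccl22 reached 125, 179 and 74.9 CPM in the CD11c+ libraries and had no count in any CD11c- library (adjusted p = 0.000131). Against the floor of 3 counts per library it was at least 17.1-fold higher. Ccl17, its neighbour on chromosome 8, stood at 63.2, 64.5 and 53.6 CPM against 0, 15.1 and 0 CPM (log2 fold change 4.46 ± 0.74 SE, adjusted p = 0.00158). The 15.1 CPM came from CD11c- replicate 2, in which 4 counts amount to that level, and the size of the fitted fold rests on it: without that library the CD11c- group is at 0 (adjusted p = 3.6e-05). DESeq2's Wald test did not call Ccl17 (adjusted p = 0.331). Both chemokines were also called higher in CD11c+ cells of healthy mice (adjusted p = 0.000255 for Ccl22 and 3.84e-05 for Ccl17). The most abundant CC chemokines, Ccl6 and Ccl9, had adjusted p of 0.356 and 0.690. None of 9 CXC chemokines was called, with adjusted p of 0.782 for the neutrophil chemoattractant Cxcl2. At 2.84% called over all tested genes, no call among 9 says little.

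Fscn1, which encodes the actin bundler fascin of dendritic cell protrusions, stood at 130, 77.1 and 55.4 CPM against 0 in all CD11c- libraries, at least 11.8-fold higher (adjusted p = 0.000122). Il4i1, a secreted amino acid oxidase, stood at 86.4, 56.6 and 10.4 CPM against 5.23, 0 and 2.003 CPM, a pooled ratio of 16.8 with a 95% counting interval of 6.41 to 62.3 (adjusted p = 0.00398). The CD11c+ libraries differed among themselves here, replicate 3 holding the least Il4i1, Fscn1 and Ccl22 of the 3. Apol7c and the calcium channel subunit gene Cacnb3 had no count in CD11c- cells and were at least 3.90-fold and 2.26-fold higher. In all, 6 of 13 tested genes of mature migratory dendritic cells were called higher and none lower, with a median log2 fold change of 0.97. Cd83 (adjusted p = 0.959) and Marcksl1 (adjusted p = 0.719), the most abundant members, were not called. Without CD11c- replicate 2, Cacnb3 was lost (adjusted p = 0.0644), 5 were called, and the fitted median was 3.58, a value that depends on the prior count for members at 0 in the remaining CD11c- libraries.

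Genes that mark the dendritic cell lineage were present at low levels. Flt3, the receptor for the growth factor of dendritic cell precursors, stood at 15.4, 15.7 and 29.2 CPM against 0, 3.77 and 1.001 CPM, a pooled ratio of 18 (95% counting interval 4.83 to 152, adjusted p = 0.0178). Zbtb46, a transcription factor of conventional dendritic cells, stood at 13.9, 25.95 and 7.92 CPM against 2.61, 0 and 0 CPM, a pooled ratio of 25.4 (4.38 to 1022, adjusted p = 0.0261). It was not called without CD11c- replicate 2 (adjusted p = 0.0509). Together with Itgax, the gene of the gate, these were the 3 of 12 core dendritic cell genes called, and none was lower. The summed level of the 11 genes other than Itgax lay between 420.3 and 457 CPM in the CD11c+ and between 201 and 279 CPM in the CD11c- libraries. Much of that sum was Cd24a, the most abundant of the 11, at 182, 175 and 192 CPM against 47.1, 136 and 86.1 CPM. It was not called (adjusted p = 0.215, edgeR), so the sum does not describe the list as a whole.

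Among genes typical of type 2 conventional dendritic cells, which several macrophages also express, 3 of 10 were called higher (4 without CD11c- replicate 2). Cd209a, a C-type lectin, stood at 86.4, 62.9 and 107 CPM against 7.84, 37.7 and 20.03 CPM (log2 fold change 2.07 ± 0.39 SE, adjusted p = 0.00276). The lectins Mgl2 and Clec10a were higher by 1.21 and 1.11 on the log2 scale (adjusted p = 0.00390 and 0.0178). Klf4 and Sirpa, the most abundant of the list, had adjusted p of 0.882 and 0.881. Of 6 tested genes of type 1 conventional dendritic cells only Naaa was called. It encodes a lysosomal amidase of lipid mediators and stood at 484, 444 and 428 CPM against 144, 147 and 204 CPM (log2 fold change 1.42 ± 0.17 SE, adjusted p = 1.88e-05). Members of this list did not go 1 way. Clec9a had no count in the 6 libraries and Xcr1 stayed at 1.57 CPM or less. Batf3 was counted, at 23.1, 18.9 and 34.7 CPM against 10.5, 11.3 and 28.0 CPM, and was not called. Of the 6 tested, 3 had positive and 3 negative fitted values. The summed level of all 11 listed genes, Naaa included, was 786 to 924 CPM in CD11c+ and 507 to 520 CPM in CD11c- libraries. Whether dendritic cells in the CD11c+ gate or macrophages carried these transcripts was not tested, and fewer cells of a type and less RNA per cell cannot be told apart in bulk libraries.

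**Figure D2:**
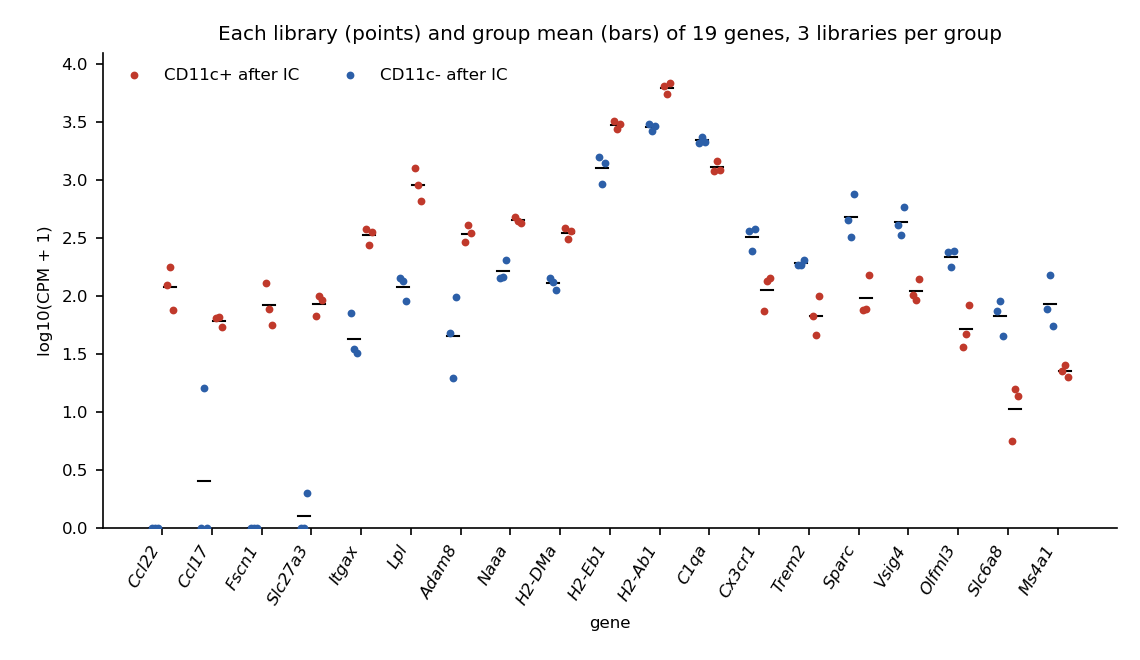
log10(CPM + 1) of 19 genes (horizontal) in each library after IC, CD11c+ in red and CD11c- in blue, with group means as bars and 3 libraries per group. Ccl22 and Fscn1 lie at 0 in all 3 CD11c- libraries. The groups did not overlap in any gene shown, which follows largely from the choice. All 19 were picked among called genes, and 288 of the 300 called genes did not overlap, against 16.8% of all genes tested.

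Genes of class II presentation were abundant in both MHCII+ subsets, and 7 of 17 were higher in CD11c+ cells. H2-Ab1, the class II beta chain, stood at 6539, 5525 and 6952 CPM against 3088, 2670 and 2926 CPM, 2.19-fold higher (log2 fold change 1.13 ± 0.16 SE, adjusted p = 0.000144). H2-Aa and H2-Eb1, whose promoters are shown above, rose by 0.93 ± 0.14 and 1.21 ± 0.21 SE on the log2 scale (adjusted p = 0.000211 and 0.000961). The peptide exchange factor rose with them, H2-DMa by 1.47 ± 0.22 SE and H2-DMb1 by 1.31 ± 0.18 SE (adjusted p = 0.000183 and 0.000131). For H2-DMa the levels were 386, 310 and 361 CPM against 141, 132 and 112 CPM. A further member was called lower, and the list's median log2 fold change was 0.48. Leaving out CD11c- replicate 2 left 6 higher and 1 lower.

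The member called lower was Lgmn, the asparaginyl protease legumain, which trims antigen and invariant chain (log2 fold change -0.56, adjusted p = 0.0488). It was lost when any of 5 of the 6 libraries was left out. Cd74 itself stood at 12243, 10707 and 12978 CPM against 6772, 1800 and 6107 CPM, groups that did not overlap, but it was not called (adjusted p = 0.113). The value of 1800 CPM belonged to the library that stood apart. None of 17 genes of class I presentation was called, and H2-D1, the most abundant, differed by 0.26 (log2, adjusted p = 0.478). Since 2.84% of all tested genes were called, no call among 17 says little about class I.

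Among lipid genes 3 of 28 were called higher and 4 lower (3 and 5 without CD11c- replicate 2). Lpl, the lipoprotein lipase, had the lowest adjusted p of all genes (6.96e-06), at 1268, 911 and 658 CPM against 141, 136 and 89.1 CPM, 8.01-fold higher. Gm2a and Psap, activator proteins of lysosomal sphingolipid breakdown, rose by 1.29 and 0.73 (log2, adjusted p = 0.000184 and 0.0267), and Lgals3, the galectin of phagosomes, by 0.99 (adjusted p = 0.00269). Slc27a3, a fatty acid transport family member, stood at 66.3, 99.9 and 92.6 CPM against 0, 0 and 1.001 CPM (adjusted p = 1.29e-05). That single count gave a pooled ratio of 149 with a counting interval from 26.5 to 5899. Slc27a3 and Psap are not in the lipid list, whose 3 higher genes were Lpl, Gm2a and Lgals3.

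Of 23 scavenger and uptake genes 6 were called lower, 17 were not called and none was higher. Trem2, a lipid receptor, stood at 66.3, 45.6 and 99.3 CPM against 186, 185 and 204 CPM (log2 fold change -1.43 ± 0.24 SE, adjusted p = 0.000691). Itgb5 and Itgav, the 2 chains of the integrin that holds apoptotic cells through bridging proteins, fell by 1.53 and 0.88 on the log2 scale (adjusted p = 0.000721 and 0.0411), and Gas6, a bridge to the TAM receptors, by 0.85 (adjusted p = 0.0483). Olr1 and Msr1 fell by 1.54 and 0.75 (adjusted p = 0.0159 and 0.0485), of which Msr1 was lost without CD11c- replicate 2 (adjusted p = 0.0964). These were the 6, and the median of the 23 was -0.64. The count stayed at 6 without that library, where Stab1 was called in place of Msr1 (-1.06, adjusted p = 0.0109). Mrc1 and Lrp1, the most abundant, had adjusted p of 0.906 and 0.974. The lower genes of the lipid list included the cholesterol exporter Abca1 (adjusted p = 0.0262, but 0.0576 without CD11c- replicate 2) and the tetraspanin Cd63 (adjusted p = 0.0126). Apoe was not called (5128, 930 and 3919 CPM in CD11c- libraries, adjusted p = 0.747) except without that library (-0.70, adjusted p = 0.0254).

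Of 26 genes of resident tissue macrophages 8 were lower in CD11c+ cells. Vsig4, a complement receptor, stood at 102, 91.2 and 140 CPM against 413, 339 and 585 CPM (log2 fold change -2.02 ± 0.23 SE, adjusted p = 1.29e-05). Sparc, which encodes a matrix glycoprotein, stood at 75.6, 76.3 and 152 CPM against 450, 320.0 and 762 CPM (-2.34 ± 0.33 SE, adjusted p = 0.000131). Cx3cr1, the fractalkine receptor, stood at 74.0, 134 and 144 CPM against 366, 245 and 378 CPM (-1.48 ± 0.20 SE, adjusted p = 0.000122). The groups were apart in all 3 genes, as they were in 288 of the 300 called genes.

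None of the 26 was called higher, and the list's median was -0.53. In the fit without CD11c- replicate 2, 10 were lower. The smallest difference among the 8 was Sepp1 (selenoprotein P), at -0.56 (adjusted p = 0.0293), and F13a1 was not called (adjusted p = 0.496). Sparc and Vsig4 stood above both MHCII+ subsets in the sorted LYVE1+CX3CR1+ macrophages after IC, a comparison not tested here. In those cells Sparc averaged 1055 ± 234 CPM and Vsig4 1927 ± 182 CPM (SD, n = 3). Lyve1 itself, named after its values were seen, stood at 1001, 1054 and 1232 CPM in the CD11c+ and 1841, 516 and 2290 CPM in the CD11c- libraries, and was called lower in CD11c+ cells only without CD11c- replicate 2 (-0.90, adjusted p = 0.000261). The part that LYVE1+ cells within the gates had in the lower group was not tested.

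A related list, of TGF-beta targets and pathway genes, held 8 genes called lower and none higher among 21, with a median of -0.55 (-0.61 without CD11c- replicate 2, with 10 called lower). Olfml3, a secreted olfactomedin, fell by 1.97 ± 0.28 SE (log2, adjusted p = 0.000131). Gpr34, a lysophosphatidylserine receptor, stood at 78.7, 33.0 and 67.6 CPM against 131, 286 and 219 CPM (adjusted p = 0.000182). The purinergic receptor gene P2ry12 fell by 1.45 (adjusted p = 0.0107). Tgfbi, the most abundant member, was not called (adjusted p = 0.475) but was lower without CD11c- replicate 2 (-0.61).

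Of 19 complement genes 2 were called higher and 4 lower (1 and 6 without CD11c- replicate 2). The 2 higher were Cfp and Itgax, the gene of the gate, and only Itgax stayed without that library. C1qa fell by 0.77 ± 0.14 SE (1194, 1456 and 1235 CPM against 2115, 2372 and 2149 CPM, adjusted p = 0.00193). C1qc fell by 0.61 and the anaphylatoxin receptor gene C3ar1 by 0.86 (adjusted p = 0.0141 and 0.00517). C1qb was not called (adjusted p = 0.110), its CD11c- replicate 2 lying at 1386 CPM against 2267 and 2014 CPM in the others. Cfp, which encodes properdin, was higher (0.93, adjusted p = 0.0337), but not without that library (adjusted p = 0.0944).

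**Figure D3:**
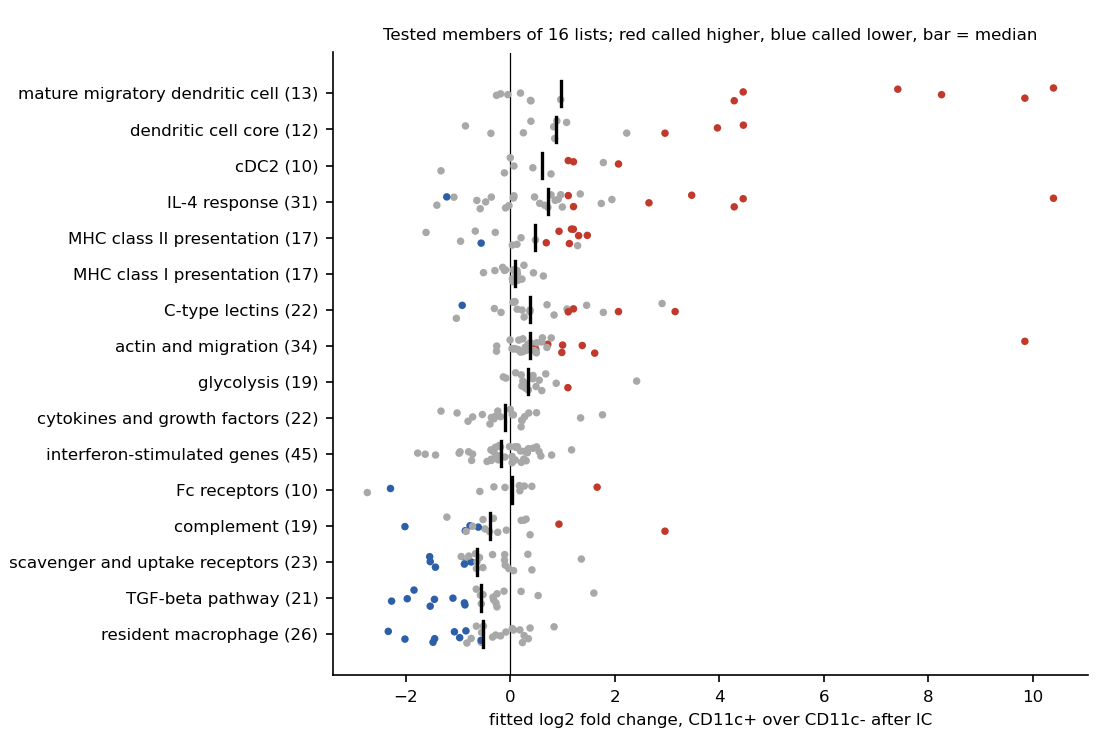
Fitted log2 fold change (horizontal) of the tested members of 16 lists (vertical, with the number tested), members called higher in CD11c+ in red, called lower in blue, others grey, and the list median as a bar. The called members of the TGF-beta, scavenger and resident lists lie left of 0, those of the dendritic cell lists right of it, and the class I, cytokine and interferon lists hold no called member.

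Of 10 Fc receptor genes 1 was called higher and 1 lower, where 2.84% of all tested genes were called. Fcrls, a member of the Fc receptor-like family, stood at 575, 498 and 403 CPM against 152, 143 and 165 CPM (log2 fold change 1.66 ± 0.25 SE, adjusted p = 0.000184). Fcmr, the IgM receptor, stood at 17.0, 8.65 and 12.2 CPM against 49.7, 64.0 and 65.1 CPM (adjusted p = 0.00150). Fcgr2b, the inhibitory IgG receptor, differed by 0.27 ± 0.16 SE on the log2 scale (adjusted p = 0.451), and the neonatal receptor Fcgrt by -0.31 ± 0.18 SE (adjusted p = 0.410). The activating receptors, named after their values were seen, had adjusted p of 0.165 (Fcgr1), 0.626 (Fcgr3) and 0.911 (Fcgr4). For these genes the data set limits on a difference and do not show that the subsets are alike.

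The called genes of the actin and migration list lay in 1 direction, higher. Besides Fscn1, Zyx (the focal adhesion protein zyxin) stood at 659, 613 and 659 CPM against 256, 147 and 315 CPM (1.38 ± 0.19 SE, adjusted p = 0.000127), and Lsp1, a leukocyte actin-binding protein, at 896, 704 and 815 CPM against 293, 97.9 and 361 CPM (adjusted p = 0.000324). Actg1, Tmsb4x and Flna, which encode gamma actin, thymosin beta4 and filamin A, are among the most abundant genes called and rose by 0.72, 0.47 and 0.66 (adjusted p = 0.00334, 0.0411 and 0.00639). Flna is not in that list. Of 34 actin and migration genes 7 were called higher and none lower, 31 had a positive fitted value, and the median was 0.38 (0.28 without CD11c- replicate 2, with 8 called). Actb missed the threshold (adjusted p = 0.148), although its groups did not overlap.

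Adhesion receptors and proteases differed in both directions. The hyaluronan receptor Cd44 rose by 0.92 ± 0.15 SE (822, 977 and 902 CPM against 437, 456 and 528 CPM, adjusted p = 0.000613) and Itgb7, a beta chain of gut-homing and epithelial integrins, by 1.88 (adjusted p = 0.00734), while Itga9 fell by 0.93 (adjusted p = 0.0384). Itgam, another alpha chain that pairs with beta2, and Itgb2, the beta2 chain, were not called (adjusted p = 0.548 and 0.479). Adam8, a metalloprotease of the cell surface, stood at 292, 409 and 348 CPM against 47.1, 18.8 and 97.1 CPM (2.46 ± 0.41 SE, adjusted p = 0.000632), and Mmp19 at 369, 512 and 180 CPM against 144, 109 and 76.1 CPM (adjusted p = 0.000754). Mmp12, the macrophage elastase, had no count in CD11c- libraries and 27.8, 35.4 and 49.95 CPM in CD11c+ libraries, at least 5.11-fold higher (adjusted p = 0.0314). Matrix genes on the other side included Sparc and the proteoglycan gene Vcan (-1.45, adjusted p = 0.000613). Of 29 genes of the matrix and protease list 3 were higher and 5 lower, or 6 lower without CD11c- replicate 2. Fn1 spanned 663 to 6949 CPM within the CD11c- group and was not called (adjusted p = 0.446).

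Targets of IL-4 signalling were called higher in 7 of 31 cases, with a median of 0.72 (0.47 without CD11c- replicate 2, with 9 called). They included Ccl17, Ccl22, Il4i1, Mgl2, Clec10a and Cish, a STAT-induced feedback inhibitor (21.6, 22.8 and 35.9 CPM against 2.61, 0 and 3.004 CPM, pooled ratio 11.8, counting interval 4.47 to 44.1, adjusted p = 0.00271). All of these but Cish were already counted in the dendritic cell lists above, so the list is not a separate result for them. The seventh, Ear2, an eosinophil-type ribonuclease named after its values were seen, has near-identical copies. Its relatives Ear3 and Ear12, both called, carry the same counts as each other in every library and nearly those of Ear2, so the reads cannot be assigned to 1 gene. Tgm2, a transglutaminase also induced by IL-4, was lower (-1.22, adjusted p = 0.0218). The STAT site stood in 6.29% of 175 promoters of 140 genes called higher, in 4.84% of 124 promoters of 88 genes called lower and in 5.32% of 10222 promoters of tested genes. CTGATTGG stood in 4.57%, 1.61% and 5.41%. TGANTCA was in 10.3% of the former and 10.5% of the latter against 5.08% of all, and GAGGAA in 28.6% and 38.7% against 27.4%. In the same order the shares for TGCTGA were 16%, 19.4% and 15.2%, and those for the interferon-response core 2.86%, 3.23% and 3.28%.

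Other genes with large differences served varied functions. Among those higher in CD11c+ cells, Aldh1a2, which makes retinoic acid, stood at 188, 190 and 98.7 CPM against 26.1, 11.3 and 15.02 CPM (3.18 ± 0.49 SE, adjusted p = 0.000259). Hr, the corepressor hairless, stood at 156, 136 and 177 CPM against 0, 26.4 and 17.0 CPM (adjusted p = 0.000122). The collagen receptor Ddr1 stood at 50.9, 38.5 and 18.3 CPM against 5.23, 0 and 0 CPM (adjusted p = 0.00364).

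Grap2 (an adaptor of immune receptor signalling), Slc9a4 (a sodium-proton exchanger), Clec4b1 (a C-type lectin) and Ryr1 (a calcium release channel) had fitted log2 fold changes of 3.93, 3.83, 3.15 and 3.19, with adjusted p of 0.00150, 0.00311, 0.00193 and 0.00334. Sod3, Upb1, Tubb2b, Asap2 and Net1 completed the 20 largest, with adjusted p between 0.00939 (Upb1) and 0.0484 (Net1). Each of these 5 lost its call when some single library was left out.

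At the other end, the creatine transporter Slc6a8 stood at 4.63, 14.9 and 12.8 CPM against 73.2, 90.4 and 44.1 CPM (-2.47 ± 0.35 SE, adjusted p = 0.000131). Pmepa1, a TGF-beta feedback inhibitor outside the list, had a log2 fold change of -1.86 and Pald1 (paladin) one of -1.70 (adjusted p = 0.00104 and 0.000259). Arhgap22, a Rac regulator, fell by 1.81 (adjusted p = 0.00474). Bhlhe41, a transcriptional repressor of the clock and of tissue macrophages, stood at 0, 4.72 and 6.70 CPM against 28.8, 45.2 and 9.01 CPM. It was called (adjusted p = 0.0314) but not without CD11c- replicate 2 (0.131). Sh3bgrl2, Syngr1, Gdpd5, Rai14, Pls3, Mxra8, Cep78 and B4galt7 had fitted values between -2.22 (Sh3bgrl2) and -1.73 (B4galt7). Each of these 8 lost its call when some single library was left out.

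Several inflammatory lists held few or no called genes. Over all tested genes 2.84% were called, so low counts in lists of this size say little about these programmes. None of 45 interferon-stimulated genes passed the test (median -0.19), the most abundant being Ly6e (adjusted p = 0.380) and Samhd1 (adjusted p = 0.0819). Without CD11c- replicate 2 one of them, Gbp3, was called higher (1.10). None of 22 cytokines and growth factors was called, among them Il1b (457, 472 and 707 CPM against 612, 230 and 545 CPM, adjusted p = 0.806), nor any of 20 inflammasome and IL-1 genes or 25 genes of endoplasmic reticulum stress. Of 36 TNF and NF-kB targets 2 were called, both higher: Tnip3, an inhibitor of that pathway (131, 81.8 and 112 CPM against 23.5, 11.3 and 23.03 CPM, adjusted p = 0.00200), and the survival gene Bcl2a1d (adjusted p = 0.0112), one of several near-identical Bcl2a1 copies. Nfkbia and Nfkbiz had adjusted p of 0.922 and 0.943, and Plek was lower without CD11c- replicate 2 (-0.61, adjusted p = 0.0423). Of 29 immediate early and dissociation genes Rhob was called, lower (-0.61, adjusted p = 0.0316), and Fos was not (adjusted p = 0.939).

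Calls in the metabolic and cell cycle lists are to be read against the 2.84% of all tested genes. Pfkp, a phosphofructokinase, was the only one of 19 glycolysis genes called (1.10, adjusted p = 0.0162), with 17 of 19 fitted values positive. The replication licensing genes Mcm7 and Mcm4 rose by 1.78 and 1.94 (adjusted p = 0.00811 and 0.0332) among 34 cell cycle genes. Mcm4 was not called without CD11c- replicate 2 (adjusted p = 0.0647). Dcstamp, the fusion protein of osteoclasts and dendritic cells, had no count in CD11c- cells and 20.1, 18.1 and 23.2 CPM in CD11c+ cells, at least 2.77-fold higher (adjusted p = 0.00397).

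Further lists are given beside the same background of 2.84%. Of 10 chemokine receptor genes 2 were lower, Cx3cr1 and Ccr1 (Ccr1 -1.17, adjusted p = 0.00991). Ccr2 was not called (0.56, adjusted p = 0.273). Without CD11c- replicate 2, Ccr2 was called higher (1.02, adjusted p = 0.00878) and Ccr1 was not called (adjusted p = 0.0578). The checkpoint ligand gene Lgals9 (galectin 9) was lower (-0.85, adjusted p = 0.00657), 1 of 2 with Vsig4 among 14 costimulation genes, of which 1 was also higher without CD11c- replicate 2. Of 23 genes of Toll-like receptors and adaptors Tlr13, a sensor of bacterial ribosomal RNA, was lower (-1.10, adjusted p = 0.0203), but not without that library (adjusted p = 0.0681), where Tlr2 was (-0.78, adjusted p = 0.0414). Of 52 transcription factors of macrophage and dendritic cell identity Irf5 was higher (0.65, adjusted p = 0.0374) besides Zbtb46, and Bhlhe41 lower. Without that library Zbtb46 and Bhlhe41 were lost and Irf4 was higher and Tcf4 lower (0.96 and -0.72, adjusted p = 0.0303 and 0.0432). The clock list of 16 held Nfil3, higher (1.17, adjusted p = 0.0313), and Bhlhe41, and no call without CD11c- replicate 2 (Nfil3, adjusted p = 0.0647). Genes named here for a call in that fit alone were named after their values were seen.

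Of 16 glucocorticoid targets the kinase gene Sgk1 was lower (-0.84, adjusted p = 0.0321). The leukotriene B4 receptor Ltb4r1 was the only one of 19 eicosanoid genes called, higher (adjusted p = 0.0484), and the sterol enzyme Fdft1 the only one of 25 sterol and fatty acid genes (adjusted p = 0.0377). Neither was called without CD11c- replicate 2 (adjusted p = 0.0621 and 0.0753), where Ltc4s was lower and Sqle higher (adjusted p = 0.0339 and 0.035). The coagulation factor F10 was higher and Vcan lower among 17 monocyte genes (F10 2.83, adjusted p = 0.00657), with Ccr2 higher too without that library. Of 15 genes of the purinergic list P2ry12 and the lysophosphatidylserine receptor Gpr34 were lower, both also counted in the TGF-beta list. None of 8 tested receptors for nerve signals was called, with Calcrl, a subunit of the CGRP receptor, at 29.3, 55.8 and 29.9 CPM against 60.1, 67.8 and 38.1 CPM (adjusted p = 0.571). The lysosome list of 40 held 2 higher (Gm2a, Psap) and 2 lower (Cd63 among them), and 8 lower without CD11c- replicate 2. Clec5a was the 1 lower of 22 C-type lectins (-0.92, adjusted p = 0.0141) against 4 higher, or 5 without that library.

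How firmly a call stood against the loss of 1 library varied. Of 112 named genes that were called, 58 were called whichever of the 6 libraries was left out, among them Ccl22, Ccl17, Fscn1, Il4i1, Itgax, Lpl, Slc27a3, Naaa, Cd209a, Mgl2, H2-Ab1, H2-Aa, H2-Eb1, H2-DMa, Zyx, Cd44, Adam8, Mmp19, Vsig4, Sparc, Cx3cr1, Trem2 and C1qa. The other 54 lost their call without at least 1 library, at a largest adjusted p between 0.0526 and 0.426. They included, beside the 13 named as such above, Ddr1, Bhlhe41, Ptprc, Sepp1, Flt3, Zbtb46, Clec10a, Cacnb3, Apol7c, Lair1, Lgmn, Ccr1, C1qc, Cfp, Gas6, Msr1, Olr1, Itgav, Clec5a, Tlr13, Tgm2, Cd63, Abca1, Psap, Itga9, Mmp12, Irf5, Rhob, Nfil3, Sgk1, Mcm4, Mcm7, Pfkp, Fdft1, Ltb4r1, P2ry12, Akap11, Memo1, Tmsb4x and Hsp90ab1. CD11c- replicate 3, the deepest of its group, cost the most calls (47), followed by CD11c+ replicates 2 (42) and 1 (37), and CD11c- replicate 2 the fewest (16). A call kept in these fits could still be lost in another setting. Il4i1 was lost with limma's voom and quality weights (adjusted p = 0.31). Cd209a, Cd44, H2-Aa and C1qa were lost in counts thinned to the smallest library (edgeR, adjusted p up to 0.0724). C1qa was also lost in a fit to the 6 libraries alone.

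Transcripts of other cell types were present in both subsets and moved with some results. B cell genes (Cd79a, Cd79b, Ms4a1 and Pax5) were counted in all 6 libraries, and the summed level of 7 such genes was 86.4 to 92.8 CPM in CD11c+ and 259 to 354 CPM in CD11c- libraries. Ms4a1, which encodes CD20, stood at 21.6, 24.4 and 18.9 CPM against 75.8, 151 and 54.1 CPM (-2.03 ± 0.39 SE, adjusted p = 0.00345). All 6 tested B cell genes had negative fitted values, the median being -1.81, and 1 of them, Ms4a1, was called (2 without CD11c- replicate 2, with Cd79a at an adjusted p of 0.0271). The plasma cell gene Jchain had no count. Fcmr, which B cells also express, was lower alongside them, and the part of B cells in its difference was not tested.

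Neutrophil genes were present at summed levels of 1291 to 2878 CPM in CD11c+ and 1751 to 5184 CPM in CD11c- libraries, ranges that overlap, and none of 12 tested was called (S100a9, adjusted p = 0.785). Mast cell genes summed to 55.5 to 280 CPM and 146 to 584 CPM, and T and NK cell genes to 18.5 to 23.8 CPM and 7.53 to 11.02 CPM. Of 12 T and NK genes 6 had no count, Cd3e among them. No fibroblast, endothelial, muscle, erythroid, Schwann or fat cell marker was called, and without CD11c- replicate 2 the Schwann cell gene Pmp22 was lower (-0.69, adjusted p = 0.0445).

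**Figure D4:**
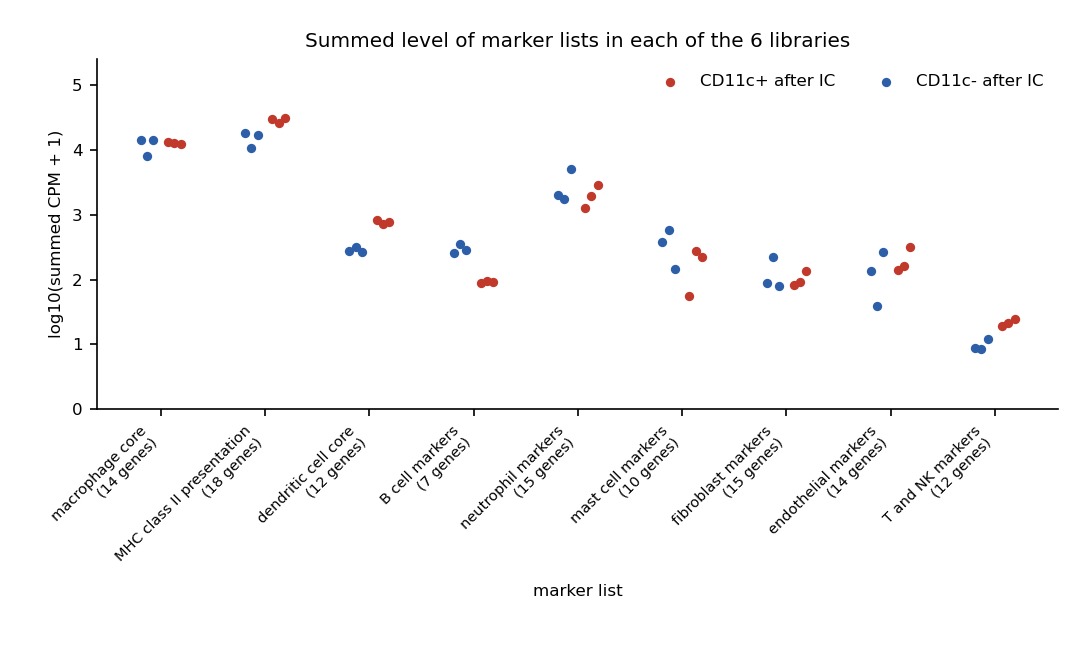
log10 of the summed CPM plus 1 (vertical) of 9 marker lists (horizontal, with the number of genes) in each of the 6 libraries, CD11c+ in red and CD11c- in blue. The B cell, T and NK cell, class II and dendritic cell sums (the last with Itgax, the gene of the gate) do not overlap between the groups, B cell genes being the ones lower in CD11c+, while the neutrophil and macrophage core sums overlap. The T and NK cell sums of CD11c- replicates 1 and 2, 7.84 and 7.53 CPM, amount to 3 counts or fewer. Neither T and NK gene tested, Cd4 and Il7r, was called.

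The subset difference after IC was set beside that in healthy mice, which rests on other libraries. There 368 genes were called (3.49% of 10550), 199 higher and 169 lower in CD11c+ cells. In both conditions 160 genes were called, 53.3% of the 300 and 43.5% of the 368, of which 94 were higher and 65 lower in both and 1 changed sides. Of the 140 genes called only after IC, 133 had the same sign in healthy mice. Over all tested genes the sign was shared by 62.3%, and across genes, which are not independent replicates, r was 0.402. A call in 1 condition alone is no evidence of a difference between conditions. The test of that difference called 1 gene of 10550 (0.00948%), while 642 had an unadjusted p under 0.05.

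That gene was Akap11, an anchoring protein for protein kinase A. After IC it stood at 32.4, 36.2 and 21.9 CPM in CD11c+ and 75.8, 52.7 and 56.1 CPM in CD11c- libraries (-1.04 ± 0.29 SE, adjusted p = 0.0484). In healthy mice the order was the opposite, 59.4, 73.0 and 60.3 CPM against 26.7, 29.3 and 23.5 CPM (adjusted p = 0.00702). The groups were apart in both conditions, and the log2 fold changes differed by -2.32 ± 0.40 SE (adjusted p = 0.0454). Of 12 fits that each left out 1 library of the 4 groups, 2 called it, those without replicate 2 of either subset after IC. In the other 10 it was lost, with adjusted p up to 0.309.

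Others with a low p for this test did not pass it and are given as values. All had an adjusted p of 0.684. Lpl differed by 3.002 on the log2 scale after IC and by 1.34 in healthy mice, where it stood at 694, 531 and 464 CPM against 324, 163 and 180 CPM. Plxdc2, a plexin-domain membrane protein, differed by 2.78 after IC (94.1, 95.95 and 91.4 CPM against 15.7, 3.77 and 16.02 CPM) and by 0.85 in healthy mice. Nop58, a nucleolar ribonucleoprotein, differed by 1.49 and -0.14, and Memo1 by -1.50 and 0.90. Hepacam2, an adhesion protein, had 17.0, 27.5 and 34.1 CPM in CD11c+ cells against no count in CD11c- cells after IC, and 41.5, 61.1 and 75.7 CPM against 17.4, 20.8 and 16.4 CPM in healthy mice. Hspb11, Lrg1, Hinfp and Cep68 were not called after IC (adjusted p = 0.305, 0.949, 0.0901 and 0.110).

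The class II genes showed the same direction in both conditions, H2-Ab1 by 1.13 after IC and 0.63 in healthy mice (adjusted p = 0.0248), H2-Eb1 by 1.21 and 0.50 (adjusted p = 0.205 in healthy mice) and H2-Aa by 0.93 and 0.46 (adjusted p = 0.0674). The difference between conditions was not called for any of the 3 (adjusted p = 0.800, 0.773 and 0.773). Vcan went further apart without IC, -1.45 after IC and -2.75 in healthy mice, and that difference was also not called (adjusted p = 0.684). Aldh1a2 was called after IC and not in healthy mice (3.18 and 0.99, adjusted p = 0.143), and the difference between the 2 was not called (adjusted p = 0.684).

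**Figure D5:**
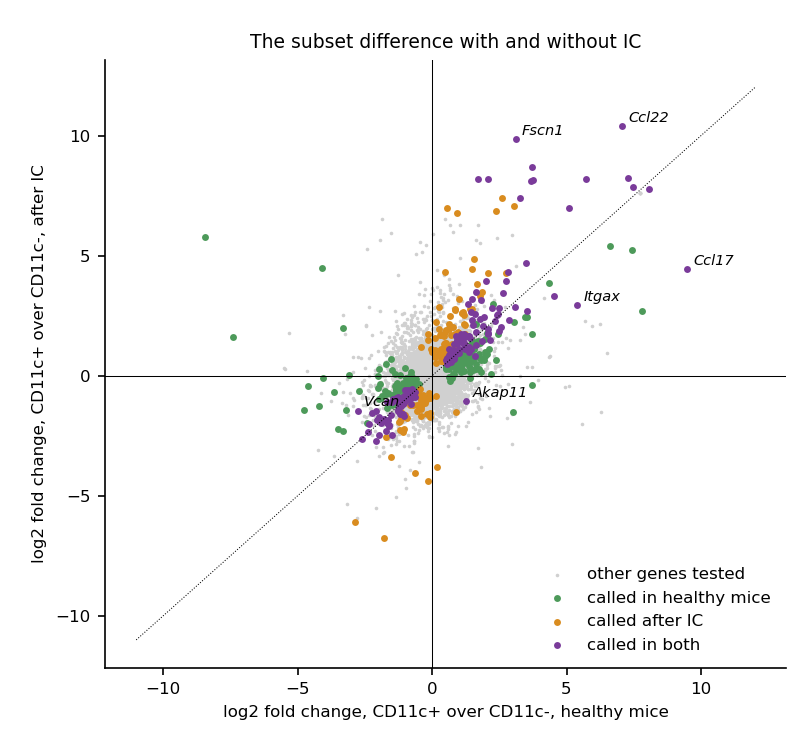
Fitted log2 fold change of CD11c+ over CD11c- cells in healthy mice (horizontal) and after IC (vertical), with 160 genes called in both conditions in purple, genes called only after IC in orange and only in healthy mice in green. Purple points lie in the same quadrant in both conditions except Akap11, which sits right of 0 and below it, and the dotted line marks equal values. Fitted values of genes with no count in a group depend on the prior count.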

How the data were processed

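RNA was prepared from sorted synovial macrophages with a stranded total RNA kit and sequenced in paired-end reads. The authors ran Trim Galore, HISAT2 (mm10) and featureCounts and deposited raw counts per gene symbol. Versions, annotation, strand setting and the treatment of multiply matching reads are not given in the sources used here. Some reads were counted for more than one gene: 79 of 10134 tested genes with at least 100 counts shared every count with another symbol, 2 of them called. Overlapping, antisense and near-identical genes are thus uncertain. The files list 24421 symbols, 17957 of them with a count, and no mitochondrial gene. A combined table held the same counts and was not used.

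CPM were computed from the deposited counts with TMM factors in edgeR 4.0.16 under R 4.3.3, and filterByExpr (at least 10 counts, total at least 15) kept 10550 genes. All 18 libraries in 6 groups entered 1 quasi-likelihood fit, so that the groups share one estimate of the spread. The 3 contrasts tested were the subsets after IC, the subsets in healthy mice, and the difference between them, each with Benjamini-Hochberg adjustment and a threshold of 0.05. SE is the log2 fold change divided by the square root of F. Levels are compared between libraries only, not between genes. A group at 0 in every library was set to a floor of 3 counts per library. Where a group had 3 counts or fewer in each library, the pooled ratio is given with an exact (Clopper-Pearson) 95% interval. Floors and intervals cover counting error only, since reads carry no molecular identifiers in these counts. Replicates are separate pools of mice and varied by more than sampling noise (chi-square per gene at least 3.57 within a group). The procedure was tested on simulated counts.

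Named genes were Itgax, Ccl17 and Ccl22, then the 20 highest and 20 lowest log2 fold changes of called genes whose groups do not overlap and whose mean log2 CPM reached 3. Of each list the called members were named (if over 6, the 3 with the lowest adjusted p in each direction) with its 2 most abundant ones, then the 10 lowest adjusted p of the difference between conditions and the 10 most abundant called genes. The comparison, the lists and this rule were chosen with earlier results of these data known. Lists were written from general knowledge and are described by counts and medians. Alternatives were DESeq2 1.42.0 size factors and Wald test, other filters, a fit to the 6 libraries, a replicate block, 1 surrogate variable (sva 3.50.0), counts thinned to the smallest library, limma 3.58.1 voom with quality weights, counts without Rn45s, and leaving out each library. RefSeq promoters (GRCm38.p6, chromosome 18 left out) were matched by symbol for 8012 tested genes. Some named genes are not reported here.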

Additional observations from a re-analysis of the deposited data

Results flagged for a closer look

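Akap11 differed between conditions by the test of the difference itself, with a value of -2.32 on the log2 scale (the CD11c+ minus CD11c- difference after IC less that in healthy mice, adjusted p = 0.0454, edgeR). The 3 CD11c+ libraries lay below all 3 CD11c- libraries after IC and above all 3 in healthy mice. DESeq2's Wald test gave an adjusted p of 0.000905, and a fit with the replicate number as a block 0.0605. Leaving out 1 of the 12 libraries at a time kept the call in 2 fits, with adjusted p between 0.0426 and 0.309. Being 1 gene picked from 10550 by this test, it is given as a value only.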

How the results depend on the processing

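Of the 300 calls after IC, 288 were shared with DESeq2 size factors (297 called), 296 with DESeq2's Wald test (445), 274 with a replicate block (340), 287 with 1 surrogate variable (394) and 300 without Rn45s (303). The count moved further without a filter (465), with voom quality weights (186), in a fit to the 6 libraries (100) and in counts thinned to the smallest library (58, of 4671 genes tested). With at least 10 counts in every library, 218 of 3908 genes were called, 104 higher and 114 lower. Leaving out 1 library gave 167 to 309 calls after IC (fewest without CD11c+ replicate 2, most without CD11c- replicate 2), 187 to 409 in healthy mice (fewest without CD11c- replicate 3, most without CD11c- replicate 1) and 0 to 1 for the difference between conditions. Where it left an arm with 2 libraries, the fit pooled the spread over all groups. In healthy mice the count also moved by more than 1.5 times without CD11c- replicate 2 (209), CD11c+ replicate 2 (214) and CD11c+ replicate 3 (225), and 578 genes were called without a filter. The difference between conditions called 29 genes without a filter and 2 with the replicate block, Akap11 not among the latter. None of the 201 named genes changed direction past the threshold in any alternative run, and 35 of the 112 called were called in every one. Thinned counts lost 45 of them and the fit to the 6 libraries 50.

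The replicate numbers were not taken to pair the libraries. Same-numbered libraries of the 2 subsets correlated at 0.022, 0.038 and 0.094 in their deviations from the group means, none over 0.1, although each library correlated best with its own number, a hint from the data and not the design. The replicate block called 340 genes. The CD11c- group limits precision: 3 counts stand for up to 11.3 CPM there, so differences of genes under that level were not detectable in all libraries.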
